A study of Mus musculus with 2 samples.

Results

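Baf155, the product of Smarcc1, belongs to the core of BAF (SWI/SNF) chromatin remodelling complexes, and the progenitors of a yolk sac library labelled Baf155 CKO did not all lack Smarcc1 RNA. The cells described here are the 131 progenitor barcodes of that library's 865 (1680 in the series), split by their Smarcc1 RNA. They were chosen by their own UMIs of Smarcc1, Myb, globin and collagen genes. A barcode counted as a progenitor with at least 500 genes, at most 10% mitochondrial UMIs, at least 1 UMI of Myb, under 5% of its UMIs from the embryonic globin genes Hbb-y, Hbb-bh1 and Hba-x, and under 10 UMIs of Col1a1, Col1a2 and Col3a1 per 10000. A UMI is 1 captured RNA molecule. The 30 cells with at least 2 Smarcc1 UMIs are called retaining, the 71 cells with 0 UMIs are called negative, and the 30 cells with 1 UMI are shown beside them but were left out of the comparison.

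The study profiled yolk sac cells of B6 mice with the 10x Genomics 5′ assay, with 1 library from wild-type (WT) embryos and 1 from Baf155 CKO embryos. For both genotypes E9.5 and E10.5 embryos in equal numbers gave the yolk sacs, which were pooled, dissociated with 0.25% collagenase, frozen, and sorted after thawing to remove dead and Ter119-positive (erythroid) cells. The tissue label names nuclei, although sorting of live cells is described. Not given in the sources used here are the Cre driver, the deleted exon, the number of embryos, and the stage and embryo of each cell. Since the deleted exon is not known, a Smarcc1 UMI does not show that a cell kept an intact allele. Cells of 1 library are not replicates: no test was made, and every interval is a 95% interval that covers counting error only.

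Erythromyeloid progenitors arise in the yolk sac from haemogenic endothelium, a kind of vessel lining that turns endothelial genes off as blood genes come on. Myb marks these definitive progenitors, which go on to form erythroid cells, megakaryocytes, granulocytes and macrophages. BAF complexes use ATP to move or evict nucleosomes, and Baf155 and its paralogue Baf170 (Smarcc2) form the scaffold on which the other subunits assemble.

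Of the CKO library, 847 barcodes passed the limits on genes and mitochondrial UMIs, 146 of them held Myb, and the globin and collagen limits removed 13 and 2. The same rule kept 168 of the 815 WT barcodes. Across the 101 compared CKO cells the deposited counts held 1691546 UMIs in the retaining and 2618403 in the negative cells. The primitive erythroid markers summed to 2474 UMIs per 1000000 UMIs of the set (CPM) in retaining and 2636 CPM in negative cells. In WT progenitors they summed to 586 CPM. These markers include the embryonic globin genes that the rule capped in every cell, so the sums are a description. The progenitor markers, which include the Myb that every cell had to hold, summed to 504 and 948 CPM. The lymphoid markers summed to 1.77 and 2.29 CPM and the trophoblast markers to 0.591 and 1.15 CPM. The doublet caller marked 6 of 865 CKO barcodes (0.694%), none in either set, and the libraries shared 1 barcode. Female and male RNA (Xist and Y-linked genes, described below) nevertheless occurred together in 2 retaining and 3 negative cells. Among quality-passing barcodes they did so in 27 of 847 CKO (3.19%) and 4 of 787 WT barcodes (0.508%). Mixed barcodes in either set are thus not excluded by the caller.

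Smarcc1 itself chose the cells, so its values are a description. The retaining cells held 2 to 10 Smarcc1 UMIs with a median of 4, together 129 UMIs or 76.3 CPM (63.7 to 90.6), and the cells with 1 UMI stood at 27.6 CPM (18.6 to 39.4). At the threshold, 10 retaining cells held exactly 2 UMIs and 30 cells just outside it held 1. In WT progenitors Smarcc1 stood at 122 CPM (114 to 130), and 150 of the 168 cells had at least 2 UMIs, 10 had 1 and 8 had 0. All 716 quality-passing CKO cells outside the progenitors stood at 22.6 CPM (20.6 to 24.7), and 95 of them (13.3%) had at least 2 UMIs. Among them, CKO barcodes with at least 20% embryonic globin stood at 7.58 CPM (5.72 to 9.84). Of these 207 globin-rich cells, 12 (5.80%, 3.03 to 9.91%) had at least 2 UMIs. Globin-rich WT cells stood at 54.2 CPM (48.0 to 61.0), also below the progenitors of their library. The retaining cells, each chosen to hold at least 2 UMIs, lay below the WT progenitors, which had no Smarcc1 limit. Their place above the globin-rich cells of their own library follows from that choice.

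Smarcc1 (ENSMUSG00000032481) lies on chromosome 9, 110117708 to 110240178, plus strand, GRCm38. Its 250 bases before the RefSeq start (RefSeq, GRCm38.p6, chr9:110131774-110132023, plus strand) are shown because this is the gene that sorted the cells. Capitals mark the letters CCGGAAG, the core read by many ETS-family factors, which were searched on both strands and found 2 times. The same letters are in 6.91% of the 32851 RefSeq windows of this length.
Smarcc1: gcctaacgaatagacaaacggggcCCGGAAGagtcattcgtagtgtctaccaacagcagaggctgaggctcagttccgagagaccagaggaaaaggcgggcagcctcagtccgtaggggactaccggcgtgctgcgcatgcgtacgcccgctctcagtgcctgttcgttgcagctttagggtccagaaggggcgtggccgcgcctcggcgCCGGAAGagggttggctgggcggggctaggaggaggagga

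Retaining cells were deeper. They held 27312, 56648 and 83851 UMIs at the lowest, median and highest, against 6929, 33281 and 96471 in negative cells and 8616, 35238 and 79352 in cells with 1 UMI. A threshold of 2 UMIs picks deeper cells by construction, so shares of cells are also given after each cell was thinned to 10000 UMIs, which left out 1 of the 71 negative cells and none of the retaining ones. Medians of mitochondrial UMIs were 1.73% in retaining and 2.26% in negative cells.

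The 2 sets also differed in sex-linked RNA, which the rule did not use. Xist is transcribed from the inactive X of female cells, and Ddx3y, Eif2s3y, Kdm5d and Uty lie on the Y. Of the 30 retaining cells, 26 held Y-linked UMIs and no Xist (86.7%, 69.3 to 96.2%), 2 held Xist alone, 2 held both and 0 held neither, which allows a share of up to 11.6%. Of the 71 negative cells, 22 held Y-linked UMIs alone (31.0%, 20.5 to 43.1%), 37 Xist alone, 3 both and 9 neither. Of the cells with 1 UMI, 15 were Y-only and 8 Xist-only, and WT progenitors were 71 and 81. The retaining set was thus mostly male by RNA where the negative set and the WT progenitors were mixed. The difference in the Y-only share was 55.7 percentage points, and it was 54.9 points among cells of 20000 to 60000 UMIs. With the classes called again after thinning, 17 of 30 retaining cells were Y-only and 2 Xist-only, against 14 and 34 of 70 negative cells.

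The same split shows in the Smarcc1 level. CKO progenitors stood at 49.0 CPM (40.9 to 58.2) when Y-only and at 6.40 CPM (3.41 to 10.9) when Xist-only, while WT progenitors stood at 122 and 126 CPM. In globin-rich CKO cells the levels were 6.98 CPM (3.90 to 11.5) in Y-only and 6.96 CPM (4.76 to 9.83) in Xist-only cells. All CKO cells outside the progenitors, the globin-rich ones included, stood at 32.6 CPM when Y-only and 15.6 CPM when Xist-only. Embryo of origin, sex and Smarcc1 level cannot be told apart in this design. Some comparisons are therefore also given within Y-only cells, 26 retaining against 22 negative. For the other comparisons the text gives no Y-only value. The Y-only comparison does not separate embryo of origin from Smarcc1 level, because the embryo of each cell is not known.

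**Figure D1:**
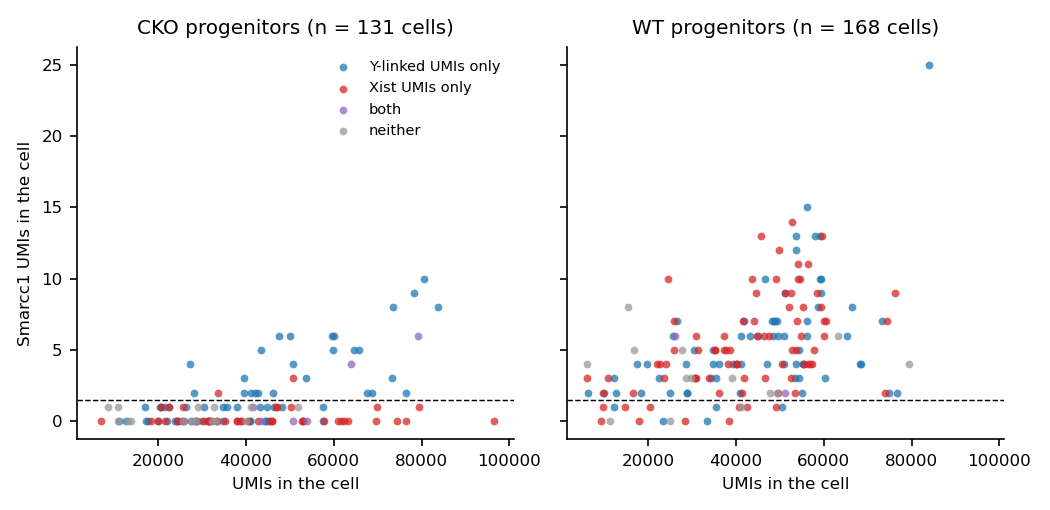
Smarcc1 UMIs of each progenitor (vertical axis) against its total UMIs (horizontal axis), in the CKO library (131 cells, left) and the WT library (168 cells, right); each point is 1 cell, coloured by its sex-linked RNA, and the dashed line separates 1 from 2 UMIs. CKO cells above the line are mostly Y-only (26 of 30), while WT cells of both kinds lie above it.

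Across the 6396 genes with at least 50 UMIs over both sets, the median log2 ratio of retaining over negative was -0.03. At least 2-fold higher were 132 genes (2.06%) and at least 2-fold lower 345 (5.39%). With every cell thinned, when fewer genes reach the floor, these counts were 61 and 133. Within Y-only cells 4437 genes passed the same floor, 260 at least 2-fold higher (5.86%) and 212 at least 2-fold lower (4.78%). These shares over all genes are the background for each list count below. The 15 genes with the highest and the 15 with the lowest ratios are described below in groups; all 30 kept their direction at 2-fold or more within Y-only cells. Without the cell that held most UMIs of the gene in each set, all 30 still passed 2-fold over all cells. Within Y-only cells 14 higher and 14 lower genes did, Pf4 did not with a ratio of 0.568, and Icam1 had 0 UMIs left in negative cells. They were chosen for these ratios, which are therefore a description.

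Several of the named genes that stood higher in retaining cells are known from myeloid cells. Prtn3 (ENSMUSG00000057729, chromosome 10, 79874476 to 79883174, plus strand), a serine protease of neutrophil granules, ran from 0 to 21.9 UMIs per 10000 in retaining cells with a median of 4.09, and from 0 to 5.36 with a median of 0 in negative cells. Summed, it stood at 575 CPM (540 to 613) against 65.3 CPM (55.9 to 75.9), a ratio of 8.81 (7.48 to 10.4), with 317 CPM in WT progenitors. The ranges overlap. Prtn3 was found in 25 of 30 retaining and 23 of 71 negative cells, and after thinning in 66.7% and 24.3%, against 3.86% of unthinned globin-rich cells, which should lack it. Within Y-only cells the ratio was 10.1 (7.29 to 14.5).

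Rac2 (ENSMUSG00000033220, chromosome 15, 78559167 to 78572783, minus strand), a signalling gene expressed mainly in blood cells, stood higher in most but not all retaining cells. It ran from 0 to 11.4 UMIs per 10000 with a median of 5.42 in retaining cells, and its median was 0.225 in negative cells with a highest value of 11.0. The summed levels were 488 CPM (456 to 523) and 88.2 CPM (77.2 to 100), a ratio of 5.54 (4.78 to 6.43), with 107 CPM in cells with 1 Smarcc1 UMI and 428 CPM in WT progenitors. In all, 24 of 30 retaining cells held at least 20 Rac2 UMIs, against 1 of 30 cells with 1 Smarcc1 UMI, 2 of 71 negative cells and 68 of 168 WT cells. A cut in raw UMIs favours deeper cells. After thinning, 22 of 30 retaining, 2 of 29 1-UMI, 7 of 70 negative and 93 of 161 WT cells held at least 4 Rac2 UMIs, and 24, 13, 24 and 151 held at least 1. Of the 24 retaining cells with at least 20 UMIs, 22 were Y-only and 2 held both Xist and Y-linked UMIs.

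The retaining set was not uniform. In 4 of its 30 cells Rac2 was at 0: both Xist-only cells, with 2 and 3 Smarcc1 UMIs, and 2 Y-only cells with 2 each. These 4 cells held 0 Plac8 UMIs, and 1 of the Y-only cells held 107 of the 184 Pf4 UMIs of the whole set. Another cell, Y-only with 2 Smarcc1 UMIs, held all 20 Sox17 UMIs and 24 of the 52 Ecscr UMIs of the set, beside 3 Rac2 UMIs and 0 Prtn3 UMIs. In negative cells 34 of 71 (47.9%, 35.9 to 60.1%) had Rac2 at 0, compared with 2 of 168 in WT.

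**Figure D2:**
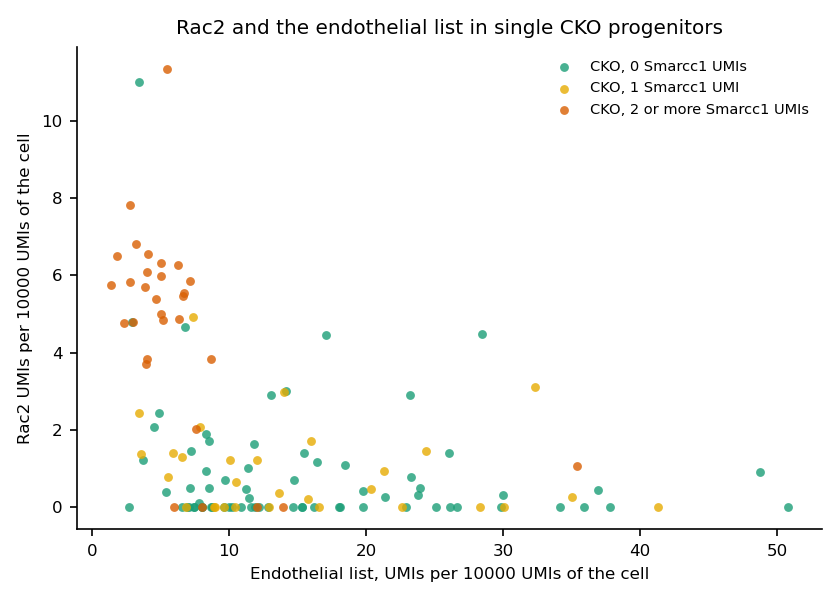
Rac2 UMIs per 10000 UMIs (vertical axis) against the summed UMIs of the endothelial list per 10000 UMIs (horizontal axis), 1 point per CKO progenitor, coloured by its Smarcc1 UMIs. Most retaining cells sit at the top left, and 4 of them lie at 0 Rac2 among the negative cells.

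The other named genes of this direction follow. Plac8, a gene of granulocytes and macrophages, stood at 167 CPM in retaining and 13.7 CPM in negative cells, a ratio of 12.2 (8.58 to 17.7), with 119 CPM in WT. Icam1, the adhesion ligand of leukocyte integrins, stood at 59.1 and 4.58 CPM, with 31.1 CPM in WT. Coro2a, a coronin, had a ratio of 7.33 (4.43 to 12.7), and the lymphocyte adaptor gene Sash3 one of 3.79 (2.43 to 6.06). Ly6e (ratio 4.39), Cmtm7 (3.90) and Cox4i2 (6.19) completed this group, and each of these 7 genes lay closer to WT in retaining than in negative cells on the log scale.

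C1qb, a complement chain made by macrophages, had the largest named ratio, 25.5 (13.9 to 51.9). It was uneven: 10 of 30 retaining cells held any C1qb, 1 cell held 33.1% of its UMIs, and the median cell held 0. The 6 macrophage markers found in the files summed to 195 CPM in retaining, 14.1 CPM in negative and 34.2 CPM in WT progenitors, with Timd4 at 0 in both CKO sets. The sums include C1qb, chosen for its ratio, which gave 107 CPM in retaining and 4.20 CPM in negative cells. Of the 30 retaining cells, 7 held at least 10 UMIs of C1qa, C1qb and C1qc together, as did 1 negative and 5 WT cells. After thinning, 7 of 30 retaining, 5 of 70 negative and 14 of 161 WT cells held any. The part of these macrophage transcripts in the myeloid differences was not tested.

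Of 15 myeloid regulators over the UMI floor, 6 were at least 2-fold higher and 2 at least 2-fold lower in retaining cells, with a median log2 ratio of 0.36 beside -0.03 over all genes. Spi1, which encodes PU.1, the master factor of myeloid fate, stood at 314 CPM (288 to 342) against 181 CPM (165 to 198), and 211 CPM in WT. Irf8, needed for monocyte fate, stood at 31.9 CPM (24.0 to 41.7) against 3.82 CPM (1.83 to 7.02), and the actin regulator Coro1a at 719 against 298 CPM. Id2, an inhibitor of basic helix-loop-helix factors, went the other way, at 14.8 against 85.5 CPM, as did the lysozyme gene Lyz2 at 73.3 against 150.4 CPM.

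Granule protein genes were mixed. Of 6 over the floor, 3 were at least 2-fold higher and none at least 2-fold lower, with a median log2 ratio of 0.97. The haptoglobin gene Hp stood at 44.3 against 2.29 CPM and the protease inhibitor gene Serpinb1a at 22.5 against 6.87 CPM. Mpo, which encodes the peroxidase that defines the granulocyte-monocyte branch, did not follow Prtn3 in its summed level. It stood at 205 CPM (184 to 227) against 243 CPM (224 to 263), with 199 CPM in WT. It was found in 25 of 30 and 57 of 71 cells, or 63.3% and 62.9% of thinned cells. Cells with at least 5 Mpo UMIs per 10000 were 7 of 30 retaining (23.3%, 9.93 to 42.3%) and 7 of 71 negative (9.86%, 4.06 to 19.3%). The proteoglycan gene Srgn stood at 125 against 186 CPM. With 6 genes the median is fragile: it was -0.24 in cells with at least 5 Mpo UMIs per 10000 and -0.16 in cells with fewer.

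Genes of the integrated stress response, in which ATF4 turns on amino acid supply, also stood higher. Of the 17 measured genes, 8 were at least 2-fold higher in retaining cells and none at least 2-fold lower, against 2.06% and 5.39% of all genes. The median log2 ratio was 0.86. Within Y-only cells it was 1.22, and 10 of 16 were at least 2-fold higher, against 5.86% of all genes. The summed list ran from 4.56 to 35.0 UMIs per 10000 in retaining cells with a median of 24.5, and from 2.71 to 38.4 with a median of 9.25 in negative cells. The median WT progenitor held 16.0 UMIs per 10000, between the medians of the CKO sets.

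Members of this list fell into 2 patterns when set beside WT. Phgdh, the first enzyme of serine synthesis, stood at 543 CPM (509 to 580) in retaining, 132 CPM (118 to 146) in negative and 510 CPM in WT progenitors, and the mitochondrial folate enzyme gene Mthfd2 at 190 CPM in retaining and 112 CPM in WT with a ratio between the CKO sets of 3.80 (3.10 to 4.70). By contrast, the glutathione-degrading enzyme gene Chac1 stood at 34.3 CPM in retaining, 1.53 CPM (0.416 to 3.91) in negative and 0.842 CPM in WT, a ratio of 22.4 (8.31 to 85.1) between the CKO sets. Trib3, a pseudokinase induced by ATF4, stood at 69.2, 15.3 and 3.09 CPM, and the sestrin gene Sesn2 at 52.0, 8.02 and 9.96 CPM. Chac1 was seen in 21 of 30 retaining, 2 of 71 negative and 5 of 168 WT cells, and after thinning in 26.7%, 1.43% and 1.86%, compared with 1.45% of unthinned globin-rich cells. Globin-rich CKO cells stood at 151 CPM for Trib3, 169 CPM for Mthfd2, 106 CPM for Phgdh and 10.4 CPM for Sesn2. High Trib3 and Mthfd2 RNA was thus not particular to retaining cells. Atf4 itself stood at 368 against 256 CPM, with 191 CPM in WT, while Ddit3 had a ratio of 1.13 (0.767 to 1.66) and Ppp1r15a one of 1.09 (0.816 to 1.44). Amino acid transporter genes were higher: Slc3a2 had a ratio of 2.39 (2.07 to 2.76), Slc7a5 of 2.84 (2.09 to 3.89) and Slc7a1 of 3.04 (1.86 to 5.07). Hmox1, a haem-degrading enzyme gene outside the list, stood at 163, 42.4 and 23.0 CPM, but 1 retaining cell held 34.9% of its UMIs.

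Endothelial genes stood lower in retaining cells. Of the 19 genes of the arterial and pan-endothelial lists over the floor, all 19 had a ratio under 1. At least 2-fold lower were 11, against 5.39% of all genes, with a median log2 ratio of -1.48 (-1.89 within Y-only cells). In single cells the list ran from 1.38 to 35.4 UMIs per 10000 with a median of 5.04 in retaining cells, from 2.70 to 50.8 with a median of 12.2 in negative cells, and from 1.16 to 23.1 with a median of 4.72 in WT progenitors. The retaining median thus lay beside the WT median, and the cells with 1 Smarcc1 UMI, at a median of 12.5, beside the negative cells.

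Ecscr (ENSMUSG00000073599), a surface protein of endothelium, ran from 0 to 8.50 UMIs per 10000 in retaining cells with a median of 0, and up to 16.5 with a median of 1.97 in negative cells. Its summed level was 30.7 CPM (23.0 to 40.3) against 261 CPM (242 to 282), 8.50-fold lower, with 18.5 CPM in WT. It was found in 14 of 30 retaining and 57 of 71 negative cells, and after thinning in 20% and 70%, against 5.80% of unthinned globin-rich cells. Sox17, an arterial and haemogenic transcription factor gene, was found in 1 of 30 retaining and 25 of 71 negative cells, at 11.8 CPM (7.22 to 18.3) and 72.2 CPM (62.3 to 83.2), and after thinning in 3.33% and 24.3%. Lyve1, the hyaluronan receptor of yolk sac vessels, had a ratio of 0.0449 (0.0121 to 0.117) on 4 retaining UMIs, and Crip2, a LIM-domain protein gene, one of 0.0516 (0.0138 to 0.136). Gng11, a G protein subunit gene of endothelium and platelets, stood at 57.9 against 377 CPM, and the VEGF receptor gene Kdr at 31.9 against 74.1 CPM. Klf2, the flow-induced factor gene of endothelium, stood at 13.0 CPM in retaining, 110 CPM in negative and 109 CPM in WT progenitors, so that here the negative cells lay at the WT level.

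The defining endothelial markers were together lower in retaining than in negative cells. The 8 markers summed to 46.1 CPM in retaining, 173 CPM in negative and 59.9 CPM in WT progenitors, with Stab2 at 0 in both CKO sets. The sums include Lyve1, a named gene chosen for its low ratio, which gave 2.36 CPM in retaining and 52.7 CPM in negative cells. The counting intervals of Fli1 and Flt1 held 1, with ratios of 0.893 (0.685 to 1.16) and 0.896 (0.604 to 1.32).

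**Figure D3:**
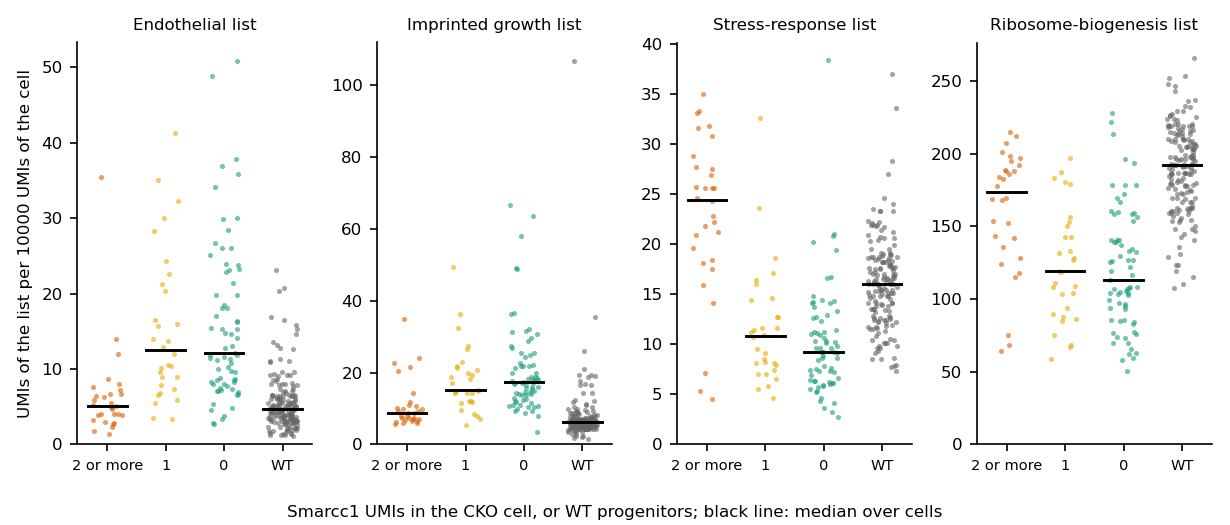
UMIs of 4 gene lists per 10000 UMIs of the cell (vertical axes), 1 point per progenitor, for CKO cells with 2 or more, 1 or 0 Smarcc1 UMIs and for WT; black lines mark medians over cells. The endothelial median is 5.04 in retaining and 12.2 in negative cells, and the stress-response median 24.5 and 9.25.

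Megakaryocyte and imprinted genes were lower as well. Of 11 megakaryocyte genes, 7 were at least 2-fold lower and none at least 2-fold higher, with a median log2 ratio of -1.04. Pf4, the platelet chemokine gene, stood at 109 CPM (93.6 to 126) in retaining, 660 CPM (629 to 691) in negative and 70.4 CPM in WT cells, and globin-rich CKO cells held 107 CPM. These sums came from few cells: 1 retaining cell held 58.2% and 1 negative cell 32.3% of the UMIs of its set, and the medians over cells were 0.242 and 0.261 UMIs per 10000. Pf4 was found in 24 of 30 retaining and 44 of 71 negative cells, and after thinning in 26.7% and 31.4%. Gp1bb, a chain of the von Willebrand factor receptor, had 3 UMIs in retaining and 86 in negative cells, and the platelet receptor gene Clec1b stood at 87.5 against 382 CPM. Of 9 imprinted growth genes, 5 were at least 2-fold lower, with a median log2 ratio of -1.12: Igf2 stood at 14.2 against 53.1 CPM and Mest at 63.8 against 236 CPM, with 22.2 and 12.5 CPM in WT. H19, at 117 against 170 CPM, did not pass 2-fold over all cells but stood at 64.2 against 372 CPM within Y-only cells.

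Of 19 regulators of progenitor identity, 2 were at least 2-fold lower and none at least 2-fold higher, with a median log2 ratio of -0.44. The shares over all genes were 5.39% and 2.06%, and with 19 genes these counts lie near them. The lower genes were Mycn, a Myc family gene, at 16.0 against 136 CPM with 31.7 CPM in WT, and Tal1, a founding factor of blood, at 30.1 against 72.9 CPM. Of the 27 retaining Mycn UMIs, 48.1% came from 1 cell. The stem cell antigen gene Cd34 stood at 235 against 446 CPM, Kit, the stem cell factor receptor gene, at 21.3 against 40.5 CPM, and Gata2 at 42.6 against 65.7 CPM. Hhex, Lyl1 and Etv6 had ratios of 1.10, 1.17 and 0.969. Myb, which the rule used, stood at 39.6 and 77.1 CPM. The remaining named genes that were lower were Hapln1, a hyaluronan link protein gene (23.6 against 210.4 CPM), Igf1 (20.7 against 140 CPM), Lmo1 (13.6 against 89.4 CPM), Obsl1 (6.50 against 44.7 CPM), Cd24a (5.91 against 37.8 CPM), Cnrip1 (10.1 against 112 CPM) and the adult globin gene Hbb-bt (7.09 against 95.5 CPM). Cd24a and Hbb-bt were found in 9 of 30 retaining cells each, and in 21 and 25 of 71 negative cells, where 1 cell held 35.4% and 30.0% of their UMIs. Both stood at 122 and 363 CPM in globin-rich CKO cells.

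**Figure D4:**
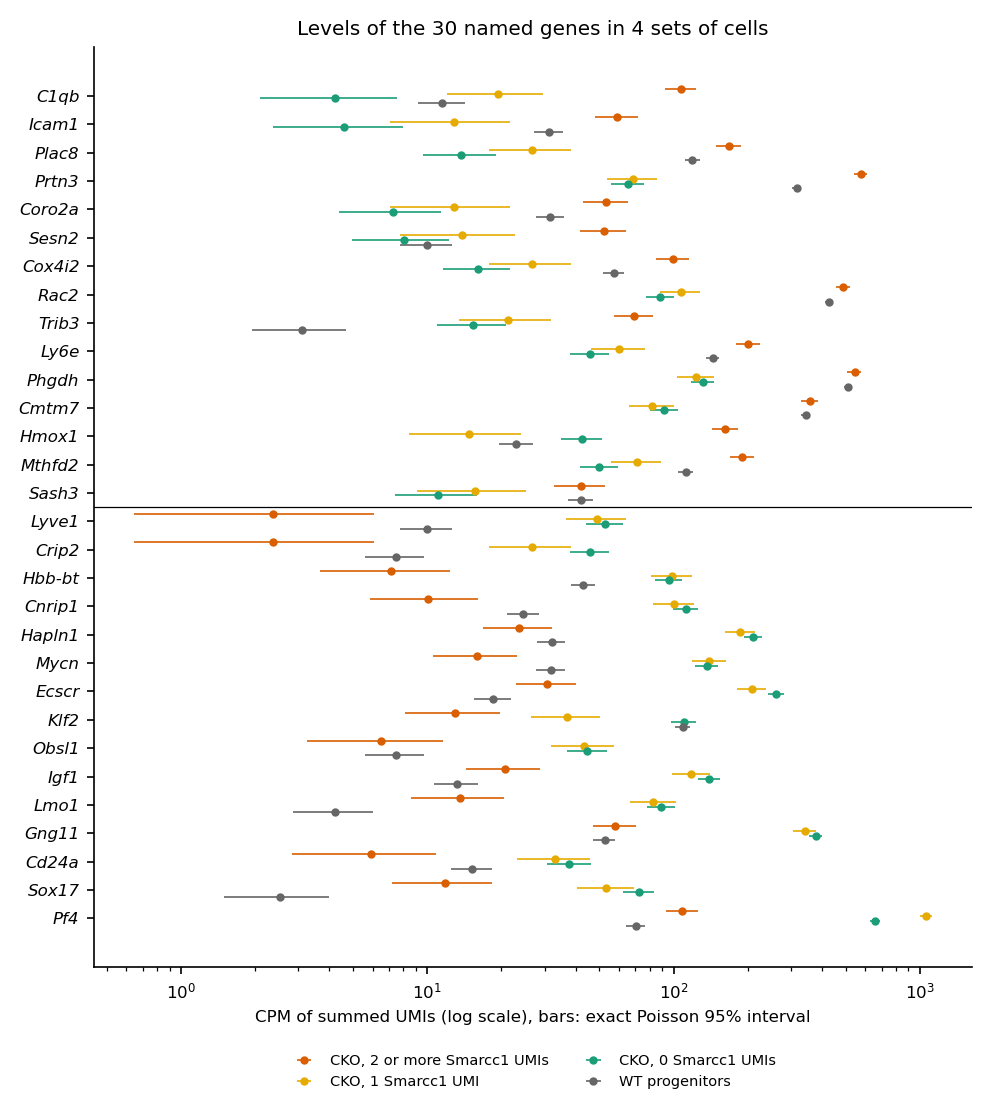
Level of the 30 named genes in CPM on a log axis, with exact Poisson intervals, in retaining cells, cells with 1 Smarcc1 UMI, negative cells and WT progenitors; the 15 genes above the line had the highest and the 15 below it the lowest ratios. Retaining levels are nearer WT than negative levels for 11 of the 15 higher and 13 of the 15 lower genes. Retaining cells were also nearer WT over all 6396 genes. There the Pearson correlation of log2 CPM with WT was 0.957 for retaining and 0.926 for negative cells, so this nearness is not particular to the named genes.

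Cells with 1 Smarcc1 UMI were also set against negative cells, over genes with at least 50 UMIs in both together and more than 3 in each. Of 10 such named genes that were higher in retaining cells none was at least 2-fold higher and 1, Hmox1, at least 2-fold lower, and of the 15 that were lower none was at least 2-fold higher and 1, Klf2, at least 2-fold lower. Over all 6089 such genes the shares were 0.345% and 0.87%. The higher genes C1qb, Icam1, Coro2a, Sesn2 and Sash3 held too few UMIs for these limits. They stood at 19.3, 12.9, 12.9, 13.8 and 15.7 CPM in cells with 1 UMI. In negative cells they stood at 4.20, 4.58, 7.26, 8.02 and 11.1 CPM, so C1qb and Icam1 differed by more than 2-fold on few UMIs. Retaining cells with exactly 2 UMIs, just inside the threshold, stood at 345 CPM for Prtn3, 405 CPM for Rac2 and 72.0 CPM for Ecscr. The 20 cells with 3 or more stood at 668, 522 and 14.1 CPM, and the cells with 1 UMI, just outside, at 68.2, 107 and 208 CPM.

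Sex-linked RNA moved with Smarcc1, so it was also set against the named genes among negative cells alone, where 22 Y-only cells were compared with 37 Xist-only cells. By the same limits on UMIs, 1.51% of 4758 genes were at least 2-fold higher and 3.45% at least 2-fold lower in Y-only cells. Of the 7 such genes that were higher in retaining cells, none passed 2-fold in either direction. Of the 15 that were lower, 2 were at least 2-fold lower in Y-only cells, Cnrip1 and Hapln1, and 4 were at least 2-fold higher, Crip2, Ecscr, Gng11 and Pf4. For Pf4 1 cell held 90.6% of the UMIs of the Y-only and 1 cell 71.5% of those of the Xist-only negative cells. Within Y-only cells Ecscr stood at 32.8 CPM in retaining and 474 CPM in negative cells, and Phgdh at 566 and 87.8 CPM. The Xist-only comparison has 2 retaining cells and is not read here beyond its values.

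In WT, where the gene is not deleted, the same split set 150 cells with at least 2 Smarcc1 UMIs against 8 with 0. Over the 4742 genes within the same limits on UMIs, 2.3% were at least 2-fold higher and 5.53% at least 2-fold lower in the cells with Smarcc1 UMIs. Of the 15 genes higher in CKO retaining cells, 10 were within them, 1 of them (Prtn3) at least 2-fold higher and none at least 2-fold lower. Of the 15 lower genes 8 were within them, 3 of them (Lyve1, Cnrip1 and Ecscr) at least 2-fold lower and none at least 2-fold higher. Prtn3 had a ratio of 2.40 (1.63 to 3.68) in WT, against 8.81 in the CKO library. The 8 WT cells held 186874 UMIs in all, which limits these ratios.

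Against all WT progenitors, retaining cells had 247 of 7825 genes at least 2-fold higher (3.16%) and 313 at least 2-fold lower (4.0%). Negative cells had 649 of 8144 at least 2-fold higher (7.97%) and 388 at least 2-fold lower (4.76%). Both comparisons share the WT cells, and the genes over the floor differ between them.

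Of 15 p53 targets with at least 50 UMIs over the set and WT together, 5 were at least 2-fold higher in retaining and 5 in negative cells than in WT, and none at least 2-fold lower. Cdkn1a, Bbc3 and Pmaip1 were among the 5 in both. Cdkn1a, the cell cycle inhibitor gene, stood at 116 CPM (100 to 133) in retaining and 97.8 CPM (86.2 to 111) in negative cells against 21.3 CPM in WT, and Bbc3, a death effector gene, at 108, 102 and 28.2 CPM. The ratio between the CKO sets was 1.19 (0.979 to 1.43) for Cdkn1a and 1.06 (0.877 to 1.29) for Bbc3, intervals that hold 1. Cdkn1a was found in 27 of 30 retaining, 35 of 71 negative and 51 of 168 WT cells, and after thinning in 56.7% (37.4 to 74.5%), 27.1% (17.2 to 39.1%) and 8.70%. Pmaip1 stood at 56.8, 124 and 18.4 CPM. Between the CKO sets, over 14 targets, 1 was at least 2-fold higher (Sesn2, also in the stress list) and 2 were at least 2-fold lower (Pmaip1 and Plk2), with a median log2 ratio of -0.36.

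Of 19 BAF subunit genes other than Smarcc1, none passed 2-fold in either direction, with a median log2 ratio of -0.01. Over all genes 2.06% were at least 2-fold higher and 5.39% at least 2-fold lower, so none of 19 is near that background. Smarcc2, which encodes the paralogue of Baf155, stood at 10.1 CPM (5.85 to 16.1) in retaining, 17.9 CPM (13.2 to 23.9) in negative and 10.4 CPM in WT cells, a ratio of 0.560 (0.301 to 0.993). The ratio was 0.722 (0.308 to 1.78) within Y-only cells. The ATPase gene Smarca4 stood at 127 against 136 CPM, Smarcb1 at 109 against 124 CPM, Arid1a at 77.4 against 93.2 CPM and Smarce1 at 164 against 160 CPM.

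Growth and division genes follow. Of 28 genes of ribosome biogenesis and MYC, 25 had a ratio over 1, none was at least 2-fold higher and 1, Myc itself, was at least 2-fold lower, with a median log2 ratio of 0.39 (0.84 within Y-only cells). The nucleolar genes Ncl and Npm1 had ratios of 1.20 (1.15 to 1.26) and 1.17 (1.13 to 1.20). Myc stood at 7.69 against 27.1 CPM, with 61.5 CPM in WT. None of 38 S phase, 39 G2 and mitosis or 37 oxidative phosphorylation genes passed 2-fold, with medians of 0.05, 0.03 and 0.01. Of 19 immediate early and heat shock genes, 8 were at least 2-fold lower in retaining cells. Hspa1a stood at 116, 595 and 1743 CPM and Jun at 163, 539 and 613 CPM in retaining, negative and WT cells.

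**Figure D5:**
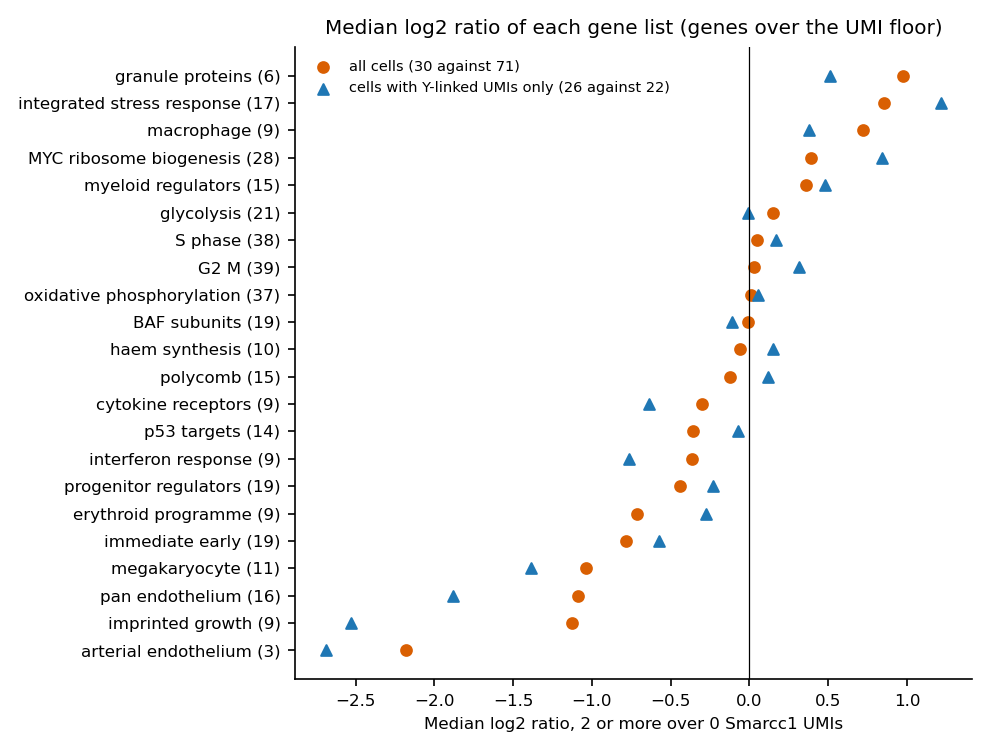
Median log2 ratio of retaining over negative cells (horizontal axis) for each gene list with the number of its genes over the UMI floor, over all cells (circles, 30 against 71) and within Y-only cells (triangles, 26 against 22). The stress-response list is at 0.86 and 1.22 and the arterial list at -2.18 and -2.69; glycolysis, polycomb and haem synthesis lie on opposite sides of 0 in the 2 comparisons.

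Promoter windows are shown for 3 genes that differed in opposite directions between the sets: Prtn3 and Chac1, which were higher in retaining cells, and Pf4, which was lower. The sequences are the 250 bases before the RefSeq start (RefSeq, GRCm38.p6). Prtn3 is at chr10:79879417-79879666 and Pf4 at chr5:90772185-90772434, both on the plus strand, and capitals mark GAGGAAGT, a PU.1-type ETS site that shares the letters GGAAG with the motif marked in Smarcc1. It was searched on both strands, lies on the minus strand in Pf4, and is in 2.44% of all windows. Of the named genes with a window, 1 of 11 higher (Prtn3) and 1 of 10 lower (Pf4) held it. Chac1 is at chr2:119350992-119351241, plus strand, and capitals mark the minus-strand match to TGATGNAA, the core of the C/EBP-ATF element that ATF4 reads. That motif is in 3.45% of all windows and in 6 of the 21 matched stress-response genes (Chac1, Asns, Pck2, Slc7a11, Nupr1 and Vldlr). It was in 0 of the 11 higher and 0 of the 10 lower named genes with a window, Trib3 included. A match is a description of these letters only.
Prtn3: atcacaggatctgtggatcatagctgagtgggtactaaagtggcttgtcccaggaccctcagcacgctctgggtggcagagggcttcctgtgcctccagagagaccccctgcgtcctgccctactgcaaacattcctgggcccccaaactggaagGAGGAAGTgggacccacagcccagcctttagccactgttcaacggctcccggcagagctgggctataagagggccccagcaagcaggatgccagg
Pf4: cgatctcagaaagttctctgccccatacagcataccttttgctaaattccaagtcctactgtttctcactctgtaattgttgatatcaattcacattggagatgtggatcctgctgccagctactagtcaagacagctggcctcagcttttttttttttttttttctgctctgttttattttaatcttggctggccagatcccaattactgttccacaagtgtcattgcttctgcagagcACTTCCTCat
Chac1: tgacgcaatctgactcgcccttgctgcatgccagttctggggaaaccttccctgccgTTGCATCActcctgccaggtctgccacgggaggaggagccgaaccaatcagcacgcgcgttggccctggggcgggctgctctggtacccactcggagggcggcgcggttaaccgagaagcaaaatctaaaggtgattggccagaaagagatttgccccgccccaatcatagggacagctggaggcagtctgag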

How the data were processed

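Counts are the deposited UMI counts per gene and barcode, whole numbers with no normalization. The submitters' processing notes name Cell Ranger, Seurat and GRCm38, without version or parameters. The files hold 33456 genes, 97.6% of them in the GENCODE vM21 annotation. The members and gene lists were chosen with earlier results of these data known.

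UMIs were summed over each set of cells and scaled to CPM. Levels have exact Poisson 95% intervals, ratios exact conditional binomial and shares Clopper-Pearson intervals. Genes needed 50 UMIs over both sets; list medians add 0.5 CPM; 2-fold counted as different. Named genes were the 15 highest and 15 lowest ratios among genes with at least 100 UMIs. These genes also had to be seen in at least 20% of cells of the higher set, with the same direction by mean per-cell CPM. Ribosomal, mitochondrial, predicted, X-inactivation, Y-linked and rule genes were left out. Other X-linked genes were kept, and the named gene Sash3 lies on the X. The rule also names BAF and rule genes and the 4 most abundant members of each list; the other list members were picked after their values were seen. A share of 0 is given with its exact upper bound.

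Doublets were called with Scrublet and not removed. UMIs of 1 cell are not independent, so intervals are too narrow for a difference between cells or embryos. Interval code was checked on simulated data. Software was scanpy 1.11.5, scipy 1.17.1, numpy 2.4.6, matplotlib 3.10.9 and pandas 2.3.3 in Python 3.11.15, with seed 0.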

Additional observations from a re-analysis of the deposited data

How the results depend on the processing

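Results were recomputed under 22 alternatives, 6 of them chosen after seeing the data. Of 630 values of the 30 named genes, 616 kept their direction, 1 (C1qb in Xist-only cells) was 0 and 13 turned. Of these 13, 11 came from Xist-only cells (2 against 37), where log2 ratios were -3.47 for Icam1, -4.91 for Plac8, -4.01 for Coro2a, -5.13 for Cox4i2, -7.11 for Rac2, -4.71 for Trib3, -6.24 for Ly6e, -1.20 for Phgdh, -0.42 for Cmtm7, -6.03 for Hmox1 and 0.42 for Mycn. The other 2 came from cells with at least 5 Mpo UMIs per 10000 (7 against 7): -0.92 for Hmox1 and 7.01 for Sox17. The Sox17 value rests on 1 of these 7 retaining cells, which held all 20 Sox17 UMIs of the set beside 15 Mpo UMIs. The cause of the turns was not tested. The count of genes at least 2-fold higher, 132, was 61 with every cell thinned, 63 in cells of 20000 to 60000 UMIs, 287 and 32 with floors of 20 and 200 UMIs, 260 in Y-only cells and 45 in the Mpo-rich cells. The count at least 2-fold lower, 345, was 133, 219, 728, 93, 212 and 67 in that order, and 224 with cells split after thinning, 195 with at least 3 Myb UMIs and 873 in Xist-only cells. Fewer UMIs or another floor changed which genes were tested. The endothelial median of -1.48 was -0.59 with cells split after thinning and -0.19 in Xist-only cells. The p53 median was 0.30 in Xist-only cells, and the granule median -0.24 and -0.16 with at least and under 5 Mpo UMIs per 10000. With cells split after thinning, 25 of the 30 named genes left their counting interval, all in the same direction. The Y-only share difference was 36.7 points with the classes called after thinning, and 38.9 to 64.0 points under the other alternatives. No paired analysis was possible because each genotype has 1 library. Depth, 1 library, the unknown embryo and stage of each cell, and 30 retaining cells limit every value.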

Other observations

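HOX genes were sparse in both sets, and none of the 26 reached the UMI floor. Summed, they stood at 5.32 CPM (2.43 to 10.1) in retaining, 64.5 CPM in cells with 1 Smarcc1 UMI, 38.2 CPM (31.1 to 46.5) in negative and 27.2 CPM in WT progenitors. Hoxb4 held 5 UMIs in retaining and 35 in negative cells, Hoxb2 held 1 and 21, and Hoxb5 held 0 and 18. In WT progenitors Hoxa9 held 55 UMIs, against 0 in retaining and 3 in negative cells. These genes were picked after their values were seen.

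Among genes of antigen presentation and interferon response, 9 passed the floor, none was at least 2-fold higher and 1, the immunoproteasome gene Psmb8, was at least 2-fold lower in retaining cells. The class I gene H2-D1 stood at 111 against 203 CPM and Bst2 at 79.8 against 147 CPM. The chemokine gene Ccl3 stood at 85.7 CPM in retaining, 186 CPM in negative and 27.4 CPM in WT cells, while Ccl4 stood at 23.6, 10.3 and 3.09 CPM.

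Visceral endoderm markers summed to 27.2 CPM (19.9 to 36.3) in retaining, 7.64 CPM (4.67 to 11.8) in negative and 27.2 CPM in WT progenitors. The transferrin gene Trf gave 33 of the retaining and 13 of the negative UMIs. Apoa4, Amn, Cubn and Hnf4a were at 0 in both CKO sets. Their part in the other differences was not tested.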
